A study of Mus musculus with 4 samples.

Results

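The 9 genes described here are Dnmt1, Dnmt3a, Dnmt3b, Dnmt3l, Uhrf1, Tet1, Tet2, Tet3 and Tdg. They encode enzymes that place, copy or remove methyl groups on cytosine in DNA, or partners of these enzymes (DNMT3L and UHRF1). For short, all 9 are called enzymes or enzyme genes below. They were taken by symbol from a table of 23980 genes, and all 9 were listed in every library with a value that the authors' tool marked as successful. RNA had been sequenced from 4 libraries of leptotene/zygotene (L/Z) spermatocytes, the male germ cells that have just entered meiosis, sorted from mice 3 to 4 weeks old. All mice were first-generation (F1) crosses between C57BL/6J and MSM/Ms. A library each was made from a Dnmt3L heterozygote, a Pld6 WT, a Pld6 KO and a Dnmt3L KO. The Dnmt3L heterozygote and the Pld6 WT formed the control group (control replicates 1 and 2), so that 1 control carried a mutant Dnmt3l allele. Pld6 encodes a nuclease of mitochondria that is needed to make piRNAs, the small RNAs that guide silencing of retrotransposons in the male germ line. Both knockouts act in the whole animal, so somatic cells of the testis carried them too. With 1 library for each mutant, mutant values have no replicates. How many animals went into a library is not given in the sources used here.

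DNMT3A and DNMT3B methylate unmethylated DNA, and DNMT3L is a partner without catalytic activity that stimulates them. In male germ cells this de novo methylation is laid down before birth, in prospermatogonia, and is the time when DNMT3L is needed. DNMT1 copies the pattern onto the new strand at each replication and is brought to hemimethylated DNA by UHRF1. TET1, TET2 and TET3 oxidize 5-methylcytosine, and TDG cuts out the most oxidized forms for repair. The comparison asked whether RNA levels of this machinery differed in spermatocytes that had lost Pld6 or Dnmt3l. Methylation itself was not analysed here.

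The sequences before the transcription starts show how unlike the genes are in the substrate of their own products, the CpG dinucleotide. RefSeq (GRCm38.p6) gave start windows for all 9 genes, each running from 250 bases before to 50 after the start. The 3 windows of Dnmt3l held 6, 4 and 3 CpGs in 300 bases, below the median of 7 over 32851 windows of all genes. The window of Tet2 held 57, more than 99.8% of all windows and the most of the 9 genes. Windows of 1 gene could differ as much, with 2, 12 and 33 CpGs at the starts of Dnmt1, 12 and 33 at those of Uhrf1 and 46, 47 and 18 at those of Dnmt3a. The genes with 1 window had 17 (Tet1), 22 (Tet3), 26 (Tdg) and 30 (Dnmt3b) CpGs. The first Dnmt3l start (chr10:78042037-78042316, plus strand) and the Tet2 start (chr3:133544361-133544640, minus strand) are printed as a window poor and a window rich in CpGs, with each CpG in capitals and 30 bases after the start:
Dnmt3l: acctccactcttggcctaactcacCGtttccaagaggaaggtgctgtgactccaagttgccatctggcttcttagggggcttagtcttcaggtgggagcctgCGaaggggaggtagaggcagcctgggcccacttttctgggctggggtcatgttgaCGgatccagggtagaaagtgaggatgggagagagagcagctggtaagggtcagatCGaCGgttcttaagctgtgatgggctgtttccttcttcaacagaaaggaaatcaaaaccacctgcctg
Tet2: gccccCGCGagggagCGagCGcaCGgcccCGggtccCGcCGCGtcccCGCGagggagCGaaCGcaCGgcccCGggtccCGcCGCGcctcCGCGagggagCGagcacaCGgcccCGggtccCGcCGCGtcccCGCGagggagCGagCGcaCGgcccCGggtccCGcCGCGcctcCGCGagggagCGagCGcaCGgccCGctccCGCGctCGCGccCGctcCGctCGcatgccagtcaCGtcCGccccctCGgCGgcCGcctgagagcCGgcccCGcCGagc

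Dnmt1 and Uhrf1 are printed as well because their products work together. The windows of all 9 genes were searched on both strands for 4 spellings of the site of E2F, the transcription factor family of genes used in S phase: TTTCCCGC, TTTGGCGC, TTTCGCGC and TTTGCCGC. Dnmt1 and Uhrf1 held a match, the other 7 genes held none, and 2.26% of all windows (2.61% of genes) held one. Each spelling holds a CpG, and both windows with a match had 33 CpGs, against a median of 7 over all windows. The share is therefore not over windows of like CpG content. The third Dnmt1 start (chr9:20952594-20952873, minus strand) and the second Uhrf1 start (chr17:56304063-56304342, plus strand) are given with the match in capitals. Both genes have earlier starts that lie before the match, so its position is given from the named start only. The same letters, TTTCGCGC, begin at position -185 from the second start of Uhrf1. Read on the opposite strand, they begin at -219 from the third start of Dnmt1:
Dnmt1: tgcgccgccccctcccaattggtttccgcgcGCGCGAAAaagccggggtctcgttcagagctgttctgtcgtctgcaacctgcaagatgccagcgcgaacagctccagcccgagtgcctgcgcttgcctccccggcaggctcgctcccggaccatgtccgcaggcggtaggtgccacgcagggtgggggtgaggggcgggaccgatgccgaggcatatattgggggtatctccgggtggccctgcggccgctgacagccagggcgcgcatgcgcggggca
Uhrf1: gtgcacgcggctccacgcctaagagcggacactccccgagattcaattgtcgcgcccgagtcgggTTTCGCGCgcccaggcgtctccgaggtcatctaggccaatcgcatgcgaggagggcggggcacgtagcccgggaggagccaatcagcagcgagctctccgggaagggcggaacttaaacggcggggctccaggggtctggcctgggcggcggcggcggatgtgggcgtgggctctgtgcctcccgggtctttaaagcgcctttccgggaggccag
The Dnmt1 window has a further match, TTTGGCGC, at position 33 after the third start. A match describes the letters of the window and is no evidence of binding.

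Levels are given as FPKM, fragments scaled to transcript length and library size. Values of the controls are given with the Dnmt3L heterozygote first and the Pld6 WT second, and those of the mutants with the Pld6 KO first and the Dnmt3L KO second. A difference is the log2 ratio of FPKM + 1, which understates changes of genes with low levels. A gene was called when FPKM + 1 lay more than 2-fold beyond both controls. A model over all genes was fitted with the quasi-likelihood test of edgeR, and its 1 residual degree of freedom is the spread between the controls.

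The libraries were not equal in the cells that contributed RNA. The Dnmt3L heterozygote had most fragments in genes (63875934) and the Pld6 KO fewest (30439943). All 20 L/Z markers were above 1 FPKM in each library, so the labelled cell type was present in all, and their summed FPKM was 2192 and 3784 in the controls and 2193 and 1358 in the mutants. The 15 Sertoli cell markers summed to 10250.5 and 368 FPKM in the controls and to 827 and 13182 FPKM in the mutants, and none of them was at 0 in a library. The 15 spermatid markers summed to 7331 and 224 FPKM in the controls and to at most 31.5 FPKM in a mutant, where Acrv1 (Pld6 KO) and Catsper4 and Smcp (Dnmt3L KO) were at 0. The 12 pachytene markers summed to 1303 and 763 FPKM in the controls and to 97.7 and 62.4 FPKM in the mutants, with Acr at 0 in the Pld6 KO. The 14 spermatogonial markers moved less, between 781 and 1092 FPKM. The paper reports from cell sorting profiles that testes of both mutants held no germ cells past zygotene, because cells die late in that stage. Wild-type testes also held later germ cells, spermatids among them. Whether those profiles came from hybrid mice is not stated. From such mixed RNA alone, fewer cells of a type and less RNA per cell cannot be told apart. The part of these differences in the values below was not tested, except where a scaling to L/Z markers is given.

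**Figure D1:**
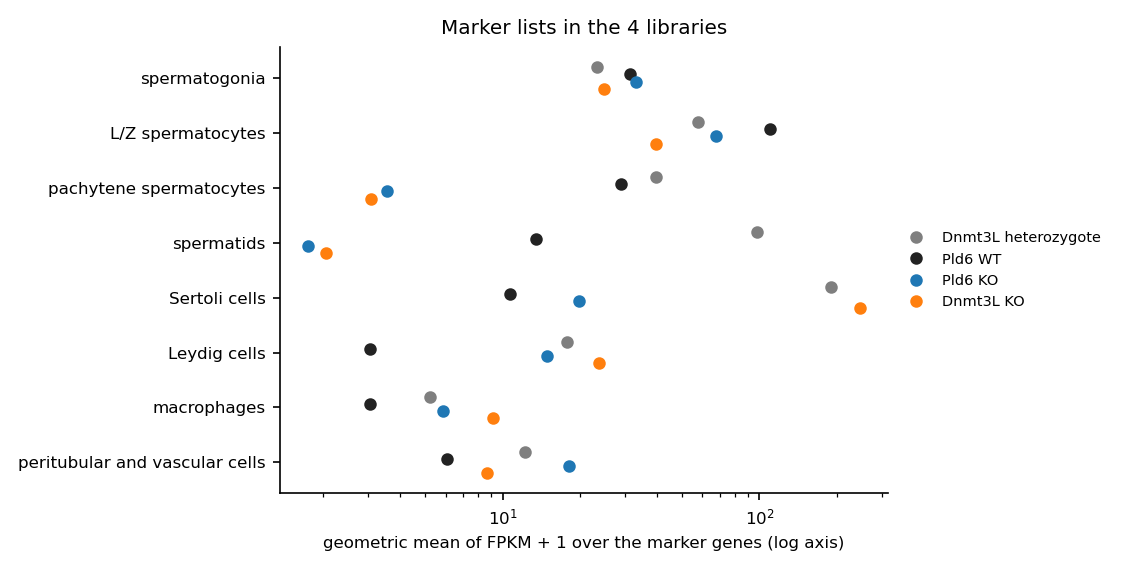
Geometric mean of FPKM + 1 over the genes of each of 8 marker lists (log axis), 1 point per library. Sertoli cell markers were highest in both libraries of the Dnmt3L line, and pachytene and spermatid markers were lower in both mutants than in both controls.

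The maintenance genes had the highest levels of the 9. Dnmt1 (chromosome 9, 20907206 to 20959888, mm10) stood at 40.3 and 77.8 FPKM in the controls and at 103 and 56.8 FPKM in the mutants, which placed it above 87.2% to 96.5% of all genes. The Pld6 KO thus lay above both controls and the Dnmt3L KO between them. Against the control of its own line, Dnmt1 was 1.33-fold higher in the Pld6 KO and 1.41-fold higher in the Dnmt3L KO, but the controls themselves were 1.93-fold apart. Uhrf1 (chromosome 17, 56303337 to 56323486) had 36.9 and 73.3 FPKM in the controls and 66.7 and 36.4 FPKM in the mutants. Its level differed between the lines and little within a line, with ratios of 0.910 and 0.986 of mutant to own control. Both libraries of the Dnmt3L line also had the high Sertoli markers, so line and cell makeup cannot be told apart. Neither gene was called in either mutant, and the edgeR adjusted p lay between 0.935 and 1 for the 4 values.

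**Figure D2:**
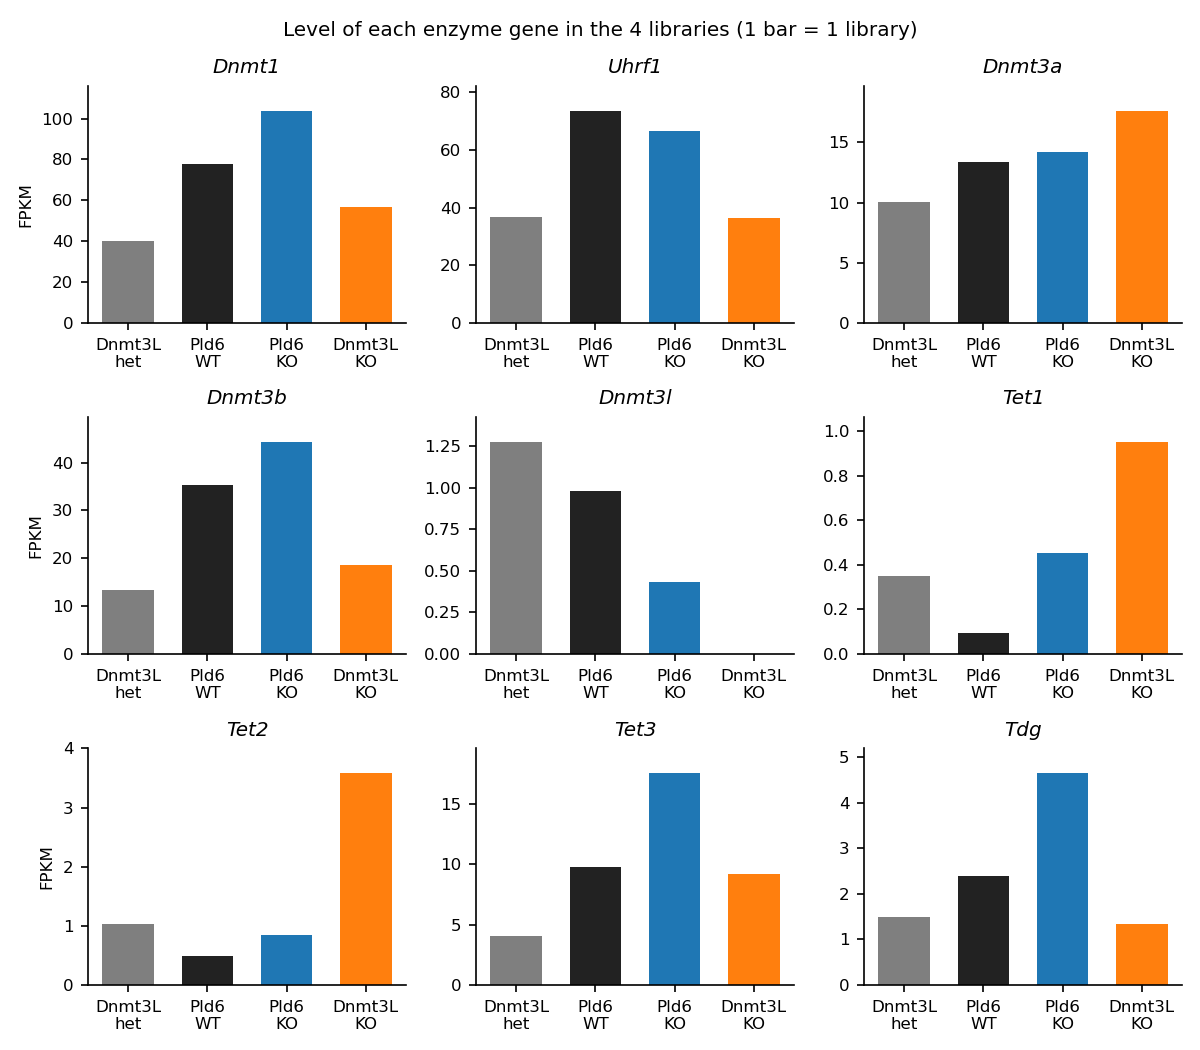
FPKM of the 9 enzyme genes, 1 bar per library, with a separate axis for each gene that starts at 0. Dnmt1, Dnmt3b and Tet3 were lowest in the Dnmt3L heterozygote and highest in the Pld6 KO library, Tet1 and Tet2 were highest in the Dnmt3L KO library, and Dnmt3l had no fragment there.

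The ratio of Uhrf1 to Dnmt1 within a library does not depend on how the library was scaled. It was 0.914 and 0.942 in the controls and 0.645 and 0.640 in the mutants. Both mutants lay below both controls, and the gap between the lower control and the higher mutant was 1.42-fold. Relative to Dnmt1, 25.7% of the 13653 genes with a mean of at least 1 FPKM and no library at 0 were lower in both mutants, and 10.2% by at least this gap, so many genes had a gap of this size relative to Dnmt1.

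The de novo enzymes differed in which mutant library held most. Dnmt3b (chromosome 2, 153649411 to 153687730) had 13.4 and 35.3 FPKM in the controls and 44.2 and 18.6 FPKM in the mutants. Its controls were 2.63-fold apart, farther than mutant and control within a line (1.25-fold for Pld6 and 1.39-fold for Dnmt3L). Dnmt3a (chromosome 12, 3801559 to 3914443) varied less, with 10.1 and 13.3 FPKM in the controls and 14.2 and 17.6 FPKM in the mutants. Both mutants were above both controls for Dnmt3a, the Pld6 KO by 1.07-fold over its own control and the Dnmt3L KO by 1.74-fold. Relative to library totals, counts in the Pld6 KO were 1.01 of its control, with an exact 95% interval (0.969 to 1.05) that holds equality. The ratio of Dnmt3b to Dnmt3a was 1.33 and 2.65 in the controls and 3.11 and 1.06 in the mutants. It was low in both libraries of the Dnmt3L line, those with the high Sertoli markers, and high in both of the Pld6 line. A near copy of Dnmt3b on the same chromosome was not listed in the table, so how fragments shared with it were counted is not known.

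Dnmt3l (chromosome 10, 78042287 to 78063622), the gene targeted in the Dnmt3L line, was near the floor of detection in all libraries. The controls had 101 fragments (1.27 FPKM) and 46 fragments (0.980 FPKM), and the mutants 20 fragments (0.432 FPKM) and 0. The count of 0 was given a floor of 3 fragments, under its exact 95% upper limit of 3.69. Set at that floor, the Dnmt3L KO would be 24.6-fold lower than the Dnmt3L heterozygote and 18.3-fold lower than the Pld6 WT. These values are on the CPM scale (counts relative to the library total, here with TMM scaling). They take the counts of the controls as exact and are not lower limits of the fold. The exact 95% interval of the ratio of Dnmt3L KO to heterozygote, which makes no such assumption, reached up to 0.0509. The unadjusted edgeR p was 0.00889 and the adjusted p 0.234. The heterozygote, with 1 mutant allele, did not lie under the other control, with a ratio of 1.35 (exact 95% interval 0.941 to 1.95, counting error only). The controls also differed in Sertoli and spermatid markers, as given above, and an effect of the allele was not tested.

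The Pld6 KO library also held less Dnmt3l than either control. Its CPM was 0.532 of the Pld6 WT (exact 95% interval 0.298 to 0.918) and 0.395 of the Dnmt3L heterozygote (0.232 to 0.643). These intervals cover counting error only and reads carried no molecular identifiers. The fragments per library also sum to more than the reads that the study's methods state for such libraries, so fragments may not be independent and the intervals may be too narrow. The edgeR adjusted p was 1. Spermatid and pachytene markers were also lower in the Pld6 KO than in either control, and their part in the level of Dnmt3l was not tested. The table lists no effective lengths, but the length implied by fragments and FPKM together can be compared between libraries. For Dnmt3l it was 1.27 times as long in the Pld6 KO as in the Pld6 WT, and 1.06 times in the Dnmt3L heterozygote, while for the 8 other genes it stayed between 0.995 and 1.02. RefSeq gives Dnmt3l 6 curated transcripts, and which of them the 20 fragments came from was not tested. The gene overlaps Aire, which stood between 0.160 and 0.317 FPKM, and whether strand was used in counting is not given in the sources used here.

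The genes of oxidation were higher in each mutant than in its own control, all 3 in both lines. Over 18199 genes with a mean of at least 0.1 FPKM, 34.7% were higher in both lines by the same rule. Tet3 (chromosome 6, 83362373 to 83457208), the most abundant of the 3, had 4.02 and 9.73 FPKM in the controls and 17.5 and 9.16 FPKM in the mutants. It was 1.80-fold higher in the Pld6 KO and 2.28-fold higher in the Dnmt3L KO than in the own control. The Dnmt3L KO was close to the Pld6 WT, and the controls were 2.42-fold apart.

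Tet2 (chromosome 3, 133463677 to 133545136) had 1.03 and 0.495 FPKM in the controls (598 and 181 fragments) and 0.853 and 3.58 FPKM in the mutants (243 and 1523 fragments). The Dnmt3L KO library stood apart, 3.49-fold above the heterozygote and farther above the Pld6 WT. This was the 1 call among the 9 genes and 2 mutants: more than 2-fold above both controls, with a log2 difference of 1.38 from their mean. Of all genes, 2.14% were called higher in the Dnmt3L KO. The Pld6 KO, where Tet2 lay between the controls, had 1.04% called higher. Called lower were 5.78% and 5.41% of all genes and 0 of the 9. In edgeR the log2 fold change of Tet2 in the Dnmt3L KO was 2.22 with a standard error of 0.790, an unadjusted p of 0.0306 and an adjusted p of 0.461.

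Tet1 (chromosome 10, 62804570 to 62887469) was the least abundant of the family, at 0.351 and 0.0944 FPKM in the controls (314 and 53 fragments) and 0.455 and 0.950 FPKM in the mutants (199 and 622 fragments). Both mutants were above both controls. By CPM, Tet1 was 4.60-fold higher in the Pld6 KO than in the Pld6 WT (exact 95% interval 3.38 to 6.35, counting error only) and 2.71-fold higher in the Dnmt3L KO than in the heterozygote (2.36 to 3.11). The Dnmt3L heterozygote was itself 3.72-fold above the Pld6 WT, so the step between the controls was near that between mutant and control. The edgeR adjusted p was 1 in the Pld6 KO and 0.679 in the Dnmt3L KO.

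Markers of other cells moved in the same comparisons, and their part in the higher TET values was not tested. Between the Pld6 WT and the Pld6 KO, the summed markers went from 26.7 to 242 FPKM for Leydig cells (8 genes), from 23.4 to 58.7 FPKM for macrophages (9 genes) and from 106 to 483 FPKM for peritubular and vascular cells (8 genes), beside the Sertoli markers given above. Between the Dnmt3L heterozygote and the Dnmt3L KO they stood at 339.9 and 340.2 FPKM for Leydig cells, 60.4 and 121 FPKM for macrophages, and 464 and 278 FPKM for peritubular and vascular cells. No gene of these 3 lists was at 0 in a library. In the Leydig list the highest gene, at 202 and 198 FPKM in the Dnmt3L heterozygote and KO, made up much of the sum. The geometric mean of FPKM + 1 over that list was 17.8 in the heterozygote and 23.8 in the KO.

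**Figure D3:**
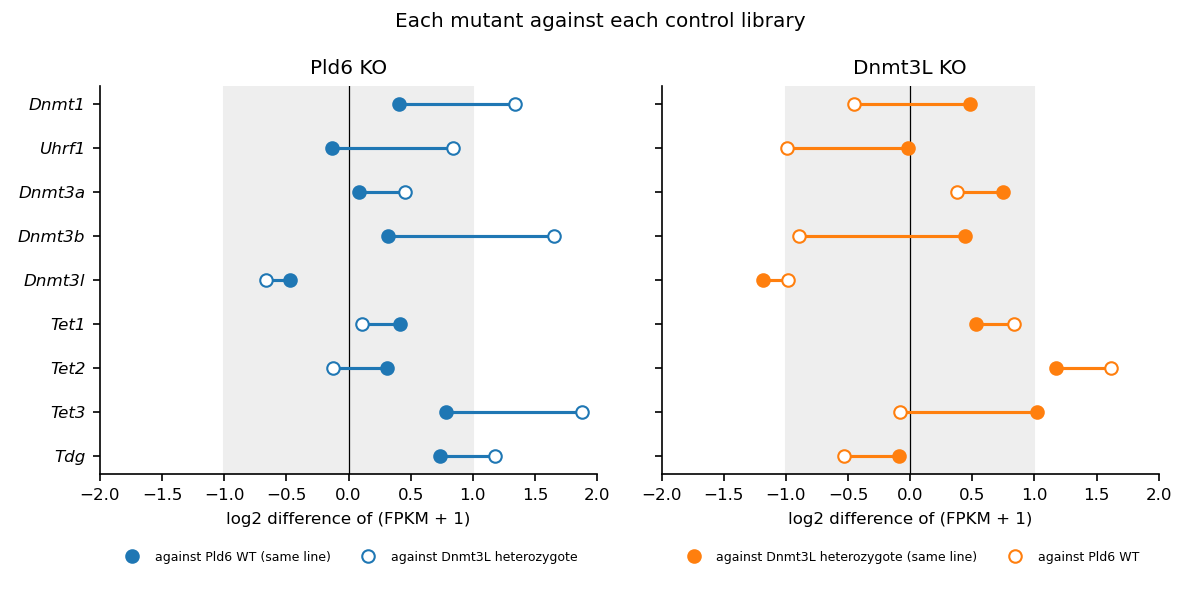
Log2 difference of FPKM + 1 between each mutant and each control library for the 9 genes. Filled points stand for the control of the same line, open points for the control of the other line, and the grey band marks differences of less than 2-fold. For Tet2 in the Dnmt3L KO both points lie beyond the band on the higher side, and the choice of control moves the value farthest for Dnmt3b.

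The balance of the TET and DNMT genes was also compared within each library. The summed FPKM of Tet1, Tet2 and Tet3 amounted to 8.47% and 8.16% of that of Dnmt1, Dnmt3a and Dnmt3b in the controls. In the mutants it was 11.6% and 14.7%, both above both controls with a gap of 1.37-fold between the lower mutant and the higher control. Relative to the same sum, 2.02% of 13653 genes were higher in both mutants than in both controls, and 0.344% by at least this gap. These shares are over single genes with a mean of at least 1 FPKM and no library at 0, and the sum of 3 genes is set beside them without a test.

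Within the TET family the makeup was alike in the libraries of a line. Those of the Dnmt3L line also had the high Sertoli markers, so line and cell makeup cannot be told apart. Tet3 gave 94.3% of the summed TET FPKM in the Pld6 WT and 93.0% in the Pld6 KO, but 74.5% in the Dnmt3L heterozygote and 66.9% in the Dnmt3L KO. Tet2 made up most of the remainder, with 19.0% and 26.1% in the Dnmt3L line against 4.80% and 4.54% in the Pld6 line. Dnmt1 gave between 61.1% and 63.9% of the summed DNMT FPKM in all 4 libraries.

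**Figure D4:**
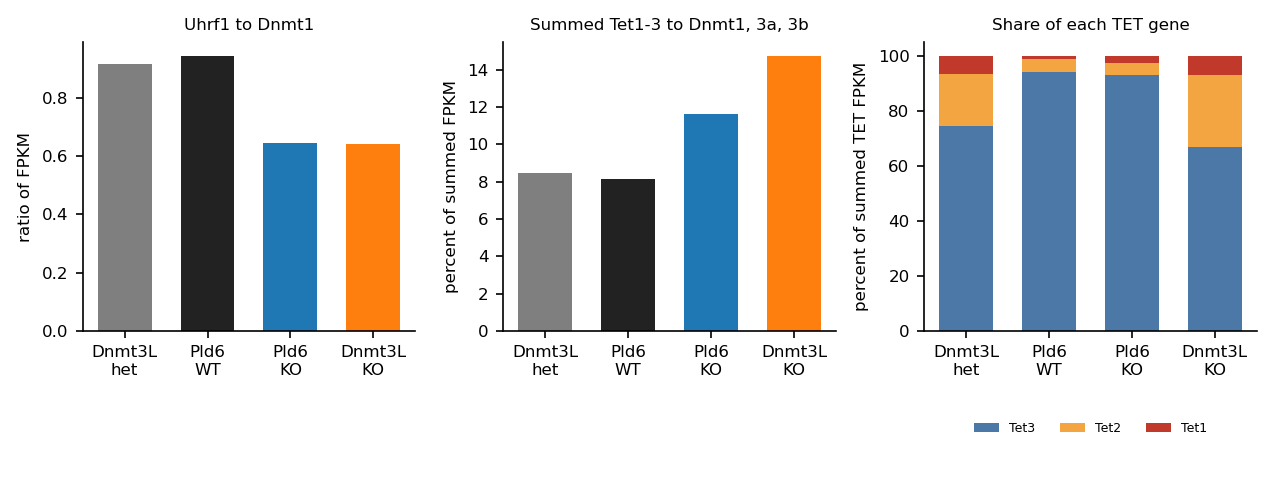
Ratio of Uhrf1 to Dnmt1 FPKM (left), summed TET FPKM as a percent of summed DNMT FPKM (middle) and share of each TET gene in the summed TET FPKM (right), 1 bar per library and axes from 0. The left ratio was 0.914 and 0.942 in the controls and 0.645 and 0.640 in the mutants, and the middle percent was 8.47 and 8.16 against 11.6 and 14.7.

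Tdg (chromosome 10, 82629814 to 82650799) was the 1 gene of the 9 that went opposite ways in the lines. It had 1.49 and 2.39 FPKM in the controls and 4.64 and 1.34 FPKM in the mutants. The Pld6 KO was above both controls, 1.95-fold over its own, and the Dnmt3L KO below both. In the Dnmt3L line the CPM was 0.900 of the heterozygote, with an exact 95% interval of 0.746 to 1.08 that holds equality. The fragments of Tdg were not whole numbers (292.29, 293.02, 444.23 and 192.18 in controls and mutants), and near copies of the gene lie elsewhere in the genome, so the share assigned to Tdg is uncertain. The gene also overlaps Glt8d2, which was at 0.841 FPKM in the Pld6 KO and between 1.98 and 2.96 FPKM in the other libraries.

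Counted over the 9 genes, 6 were above both controls in the Pld6 KO, 1 was below both (Dnmt3l) and 2 lay between. Of the 18199 genes with a mean of at least 0.1 FPKM, 32.5% were above and 33.3% below both controls there. In the Dnmt3L KO, 3 were above both (Dnmt3a, Tet1 and Tet2), 3 below both (Dnmt3l, Uhrf1 and Tdg) and 3 between, against 35.3% above and 34.9% below over all. Against the own control 7 genes were higher and 2 lower in the Pld6 KO, with 50.2% and 49.0% of genes over all, and the Dnmt3L KO had 6 higher and 3 lower, with 52.7% and 46.2%. Dnmt3l and Uhrf1 were the 2 genes lower in both lines, as were 30.9% of genes. For Uhrf1 in the Dnmt3L line the CPM ratio was 0.982, with an exact 95% interval of 0.949 to 1.02 that holds equality. The interval of Dnmt3a in the Pld6 line (0.969 to 1.05) holds equality too. More than 2-fold from the own control were Tet2 and Tet3 (higher) and Dnmt3l (lower) in the Dnmt3L KO, where 3.00% of all genes were higher and 8.22% lower by that rule. None of the 9 was in the Pld6 KO, where 4.69% were higher and 6.46% lower.

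In edgeR 0 of the 9 genes and 0 of 18657 genes had an adjusted p under 0.05, for both mutants (0.00%). At an unadjusted p under 0.05 there were 0 of the 9 in the Pld6 KO and 2 in the Dnmt3L KO, Tet2 and Dnmt3l, and over all genes 0.547% higher and 7.41% lower in the Pld6 KO and 1.09% higher and 7.72% lower in the Dnmt3L KO. DESeq2 called Dnmt3l lower in the Dnmt3L KO with an adjusted p of 0.0382 and none of the other 8 genes in either mutant. Over all genes with an adjusted p it called 5.31% lower and 0.0977% higher in the Dnmt3L KO, and 5.10% lower and 0.0807% higher in the Pld6 KO.

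The genes were also set against the markers of the sorted stage, by scaling each library so that the geometric mean of FPKM + 1 over the 20 L/Z markers was the same in all 4. On this scale Dnmt1 was at 48.0 and 48.6 in the controls and at 105 and 98.5 in the mutants. Tet3 was at 4.79 and 6.08 in the controls against 17.8 and 15.9 in the mutants. For both genes the controls moved together and both mutants lay more than 2-fold above them. Called by the same rule were Dnmt1, Tet3 and Tdg in the Pld6 KO, where 2.26% of all genes were called higher, and Dnmt1, Dnmt3a, Tet2 and Tet3 in the Dnmt3L KO, where 13.2% were. None of the 9 was called lower on this scale, against 3.90% and 3.24% of all genes. The scaling moved the median difference of genes with a mean of at least 1 FPKM from -0.0530 to 0.0926 in the Pld6 KO. In the Dnmt3L KO the median moved from -0.0154 to 0.859, since L/Z markers were lower there. The Dnmt3L KO values are therefore read against that shift. Against the mean of both controls, Dnmt1 there was at -0.0562 before scaling and at 1.01 after it, near the shifted median. For Tet3 these values were 0.367 and 1.39. The medians are also against the mean of both controls. Against the Pld6 WT alone the scaling weighed more, as the L/Z geometric mean was 110 there and 67.5 in the Pld6 KO. Before scaling, Dnmt1, Tet3 and Tdg were 1.33-fold, 1.80-fold and 1.95-fold above the Pld6 WT, and none was called.

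Genes that serve the same pathway were taken as 5 lists of 52 symbols, of which 51 were in the table and 47 had a mean of at least 1 FPKM. The symbol of Dnmt3c, a de novo enzyme of the male germ line, was the 1 without an entry and was not analysed here. By the rule of 2-fold beyond both controls 0 were called in the Pld6 KO, and 3 were called higher and 0 lower in the Dnmt3L KO. Of all genes, 1.04% were called higher and 5.41% lower in the Pld6 KO and 2.14% and 5.78% in the Dnmt3L KO. Their median log2 difference from the mean of the controls was 0.0617 in the Pld6 KO and 0.0440 in the Dnmt3L KO, beside -0.0530 and -0.0154 over all genes with a mean of at least 1 FPKM. In edgeR 0 of the 50 tested genes passed in either mutant.

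The 3 called genes come from different steps. Ogt, the O-GlcNAc transferase that binds TET proteins, had 25.0 and 29.7 FPKM in the controls and 45.0 and 65.5 FPKM in the mutants. Both mutants were above both controls, and the log2 difference from the mean of the controls was 0.70 and 1.23. Zbtb38, a zinc finger protein that binds methylated DNA, had 2.50 and 1.93 FPKM in the controls and 0.868 and 6.85 FPKM in the mutants. It was lowest in one mutant and highest in the other. Bhmt, which makes methionine from homocysteine with a methyl group of betaine, had 1.93 and 0.250 FPKM in the controls and 4.78 and 4.92 FPKM in the mutants. The edgeR adjusted p of these 6 values lay between 0.643 and 0.994.

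The lists differed in their counts within the lines. The 7 measured de novo regulators and relatives include Nsd1, Setd2 and Kdm1b, enzymes of histone marks that bear on where DNMT3A acts. All 7 had higher FPKM in the Dnmt3L KO than in the heterozygote, with a median of 0.57. Dppa3 among them was at 0.171 FPKM in the Dnmt3L KO, and the exact 95% interval of its CPM ratio (0.56 to 35.9) holds equality. Trim28 had the smallest CPM ratio of the 7, at 1.06 (1.04 to 1.08). The Pld6 line had 2 higher in its mutant and a median of -0.10. For the 8 methyl-CpG readers these counts were 6 and 4, for the 6 maintenance partners 5 and 3, for the 18 repair and demethylation partners 9 and 10 and for the 12 genes of methyl donor metabolism 10 and 7. Over all lists the Dnmt3L KO had 37 of 51 genes above its control and the Pld6 KO 26, beside 52.7% and 50.2% of genes over all.

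**Figure D5:**
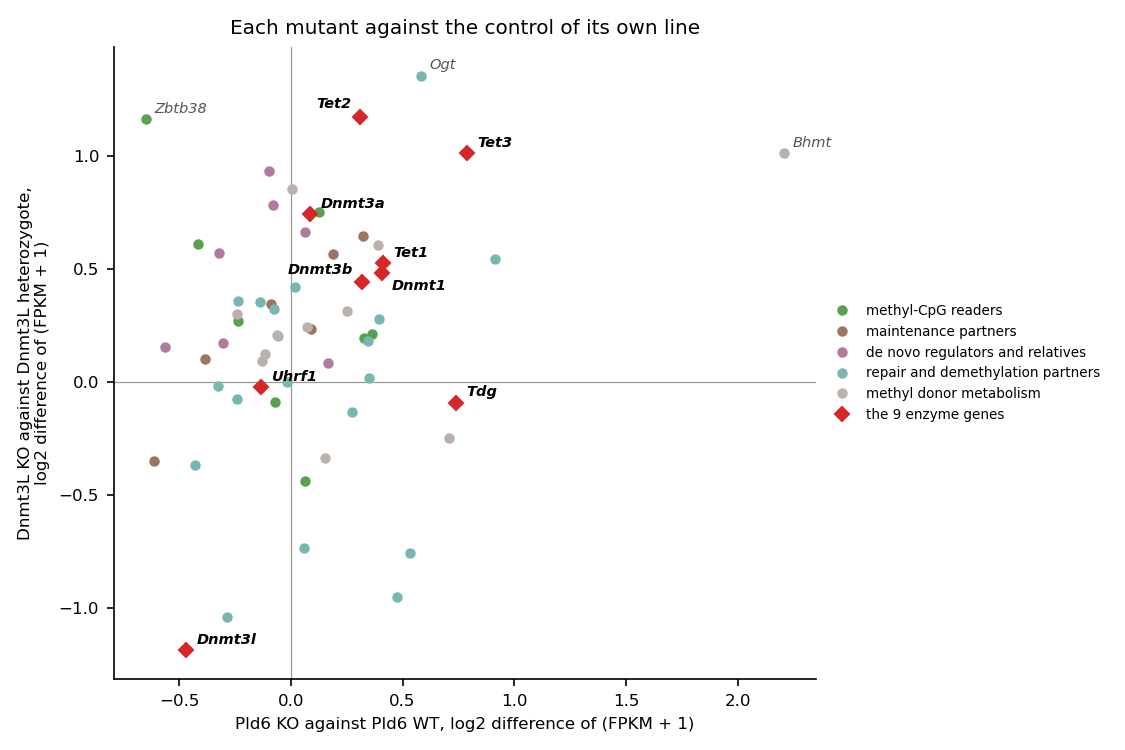
Log2 difference of FPKM + 1 between mutant and control within a line, Pld6 on the x axis and Dnmt3L on the y axis. Red diamonds are the 9 enzyme genes and circles are 51 genes of the pathway, coloured by list. Tet1, Tet2, Tet3, Dnmt1, Dnmt3a and Dnmt3b lie to the upper right, Dnmt3l and Uhrf1 to the lower left and Tdg to the lower right.

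The genes whose pattern over the 4 libraries was most like that of the 3 widest-ranging members were found by Euclidean distance between centred log2(FPKM + 1) profiles, over 14416 genes with a mean of at least 1 FPKM. For Tet3 these were Il4ra, Erbb2 and B3gnt7 (distances of 0.16, 0.16 and 0.17), for Dnmt3b they were Cdh15, Nup210 and Tro (0.0701, 0.0800 and 0.10), and for Tet2 they were Gm14393, Folr2 and Lenep (0.0476, 0.10 and 0.10). With only 4 libraries such likeness is common: 198, 437 and 387 genes lay within a distance of 0.5 of Tet3, Dnmt3b and Tet2.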

How the data were processed

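The deposited table gave, for each gene and library, an estimated count of fragments and FPKM. Per the labels and the study's methods, the authors sequenced 50 bp from 1 end of stranded polyA(+) libraries, aligned reads with TopHat2 to mm10 and quantified RefSeq genes with Cuffdiff, whose scaling the deposited FPKM carries (versions are not given in the sources used here). Between 97.3% and 97.4% of the estimated counts were exactly whole (no tolerance), and 31 values, none of the 9 genes, were marked as failed. The deposited signal values, fragments after the library scaling of Cuffdiff in 2 identical columns, were not used. Fragments in genes sum to more than the reads that the methods state for L/Z libraries, for which no reason is given. Levels and differences were computed from FPKM with a pseudocount of 1. For edgeR 4.0.16 (R 4.3.3) counts were rounded to whole numbers, filtered by filterByExpr, scaled by TMM and fitted in 3 groups, with Benjamini-Hochberg adjustment at 0.05 over all genes. The scripts were tested on simulated data. DESeq2 1.42.0 was an alternative. Positions and start windows are from RefSeq (GRCm38.p6, the coordinates of mm10). Of the listed symbols, 2 were matched through older names (Meioc as Gm1564, Adgre1 as Emr1). Ratios of CPM carry exact (Clopper-Pearson) intervals at 95%.

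The members and the gene and marker lists were chosen from general knowledge with earlier results of these data known. Named genes are the 9 enzymes, pathway genes that were called and had a mean of at least 1 FPKM, and the 3 nearest genes of the 3 members with the widest range. Nothing says that the 2 controls were otherwise matched, and their spread holds genotype, line and sorting as well as chance.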

Additional observations from a re-analysis of the deposited data

Results flagged for a closer look

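Of the 9 enzymes and the 3 named pathway genes, 2 went one way in the Pld6 line and the other way in the Dnmt3L line, within each line. As a genotype has a single library, whether the lines differ was not tested. Tdg was at 0.74 on the log2 scale in the Pld6 KO against the Pld6 WT and at -0.0886 in the Dnmt3L KO against the Dnmt3L heterozygote, where its counting interval holds equality. Zbtb38 was at -0.65 in the Pld6 line and at 1.17 in the Dnmt3L line.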

How the results depend on the processing

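The 18 differences of the 9 genes kept 1 sign under every alternative for 11 of them, and 7 took another sign under at least 1 (Dnmt1, Dnmt3b, Tdg, Tet3 and Uhrf1 in the Dnmt3L KO, Tet2 and Uhrf1 in the Pld6 KO). Tet2 in the Dnmt3L KO ranged from 1.18 to 2.10 and was called higher by fold under every alternative run other than the 3-fold threshold. At that threshold 0 of the 9 genes were called higher in the Dnmt3L KO, where 0.375% of all genes were. Shares in brackets are of all genes called in that direction under the same setting. Without the Pld6 WT (control replicate 2), 4 genes were called higher in the Pld6 KO (Dnmt1, Dnmt3b, Tet3 and Tdg; 5.55%), and in the Dnmt3L KO 2 were called higher (Tet2 and Tet3; 3.00%) and 1 lower (Dnmt3l; 8.22%). Without the Dnmt3L heterozygote (control replicate 1) these counts were 0 (4.69%), 1 (12.1%) and 0 (8.75%). A pseudocount of 0.1 FPKM called Dnmt3l lower in both mutants (1 each; 9.58% and 9.84%) and 2 genes higher in the Dnmt3L KO (Tet1 and Tet2; 5.14%), and CPM with TMM gave 2 higher (Tet1 and Tet2; 2.83%) and 1 lower (Dnmt3l; 6.18%) there. Scaling to L/Z markers called 3 genes higher in the Pld6 KO (2.26%) and 4 in the Dnmt3L KO (13.2%).

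For edgeR over all genes, no filter on low counts gave 8 higher and 429 lower genes in the Pld6 KO and 6 and 423 in the Dnmt3L KO, and DESeq2 gave 15 and 949, and 17 and 925, where the main fit gave 0. Among the 9 genes DESeq2 added 1 lower call, Dnmt3l in the Dnmt3L KO. The size factors of DESeq2 within edgeR changed no call. With 1 control left out no residual degrees of freedom remained, so the model gave values with no test. The cause of these shifts was not tested.

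With fragments per kilobase of the longest GENCODE transcript, chosen after seeing that the table lists no effective lengths (shares by effective length were therefore not run), the Dnmt1 shares were 61.5%, 60.3%, 62.7% and 59.6% in the order Dnmt3L heterozygote, Pld6 WT, Pld6 KO and Dnmt3L KO. The ratio of Uhrf1 to Dnmt1 was 0.946, 0.977 and 0.671 in the first 3, and the percent of summed TET to DNMT was 9.25, 9.01, 12.9 and 16.1. The genotype labels pair each mutant with a control of its line but give no replicate numbers. With an effect for each mutant, a term for line leaves no residual degrees of freedom, so no test within a line was possible. An edgeR model with 1 effect shared by both mutants and a term for line leaves 1 and was added after seeing the data. It asks another question, and its spread is the difference between the mutants' own-line changes. It called 0 of the 9 genes, beside 179 higher and 1179 lower of 18657 genes. The lowest values were those of Tet3 (log2 fold change 0.98, adjusted p = 0.0573), Tet1 (1.81, adjusted p = 0.0887) and Tet2 (1.27, adjusted p = 0.150), the 3 with an unadjusted p under 0.05, as had 7.42% of genes in the higher direction. Without the term for line it called 0 genes higher and 0 lower, with 124 higher and 1582 lower at an unadjusted p under 0.05. Depth limits Dnmt3l most, with 101 fragments or fewer in each library, and Tet1 in the Pld6 WT, with 53.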
